A study of Homo sapiens with 8 samples.

Results

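The genes followed here are 7 matrix metalloproteinases, MMP1, MMP2, MMP3, MMP9, MMP10, MMP13 and MMP14, and 3 of their tissue inhibitors, TIMP1, TIMP2 and TIMP3. They were taken by name from the 56632 genes of the count table, all 10 were found there, and all 10 passed the filter on low counts that left 18431 genes for testing. RNA was read from 8 libraries, 2 biological replicates from each of 4 human mammary epithelial lines that form a progression series. M1 is MCF10A, an immortalized and non-tumorigenic line. M2 (MCF10AT1k.cl2) was made from it with activated T24-HRAS and passage as a xenograft, so M2, and the lines taken from it, descend from cells given this oncogene. M3 (MCF10Ca1h) and M4 (MCF10CA1a.cl1) are malignant lines taken from tumours of M2, of which M4 is the more aggressive. Each line is therefore a single derived line, and the names of M2 and M4 end in a clone designation, so differences between lines are differences between these isolates. The cells were grown as acini in Matrigel, a basement membrane extract, for 8 days with 2% horse serum. The medium of M1 and M2 held 10 ng/ml EGF, and that of M3 and M4 held none. M2 against M1 and M4 against M3 are thus the comparisons within one medium, and in the other 4 line and medium cannot be told apart.

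Matrix metalloproteinases are zinc-dependent proteases that are made as inactive precursors and, once activated, cut collagens, laminins and other proteins of the extracellular matrix. The collagenases open intact fibrillar collagen, the gelatinases degrade denatured collagen and basement membrane collagen, the stromelysins act on a broad range of matrix proteins, and the membrane-type enzymes work at the cell surface. Each TIMP binds the active site of many of these enzymes, not of all equally, and blocks them. TIMP2 also has a part in activation, because MMP14 and TIMP2 together hold the MMP2 precursor on the membrane. In breast tissue these enzymes take part in the remodelling of the gland, and in tumours much of the MMP output is known to come from stromal cells, which these cultures were not given.

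The assignment of the libraries bears on the results. The expression table that accompanies the study assigns 2 libraries to the other line: its M2 replicate 1 column tracked the library labelled M1 replicate 2 best, by the correlation over 148 genes, and its M1 replicate 2 column tracked the library labelled M2 replicate 1 best, while the other 6 columns tracked the library of the same name. The sample labels were used throughout, and each call of the 10 genes is also given with the 2 libraries exchanged or left out where that changes it. Under the labels, the M2 replicates were the closest pair, with a chi-square per degree of freedom of 6.95 over 13495 genes, against 136 for the M4 pair, 283 for the M1 pair and 361 for the M3 pair. With the exchange edgeR called 0 genes of the whole table between M2 and M1 (315 at an unadjusted p under 0.05, and 5 calls by DESeq2, a fit added after seeing the data), against 622 under the labels. Leaving out either M2 library, with no exchange, also lost nearly all of the 622 calls. The loss of calls with the exchange therefore does not tell which assignment is right. Library totals ran from 69669970 to 107350344 counts. All 8 basal mammary markers, such as KRT5 and KRT14, and all 4 general epithelial markers were above 1 CPM (counts scaled to library size) in every library. Of 8 fibroblast markers COL1A2 was at 0 in all libraries, and the summed level of the list was 12.2 to 62.2 CPM for M1, 78.8 to 81.9 for M2, 25.1 to 51.9 for M3 and 18.6 to 37.7 for M4. Of 6 macrophage markers AIF1 was likewise at 0 in every library, but 3 were above 1 CPM in every library. Their summed level ran from 13.4 to 74.3 CPM and was highest in M4.

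The 2 collagenase and 2 stromelysin genes lie close together on chromosome 11 of GRCh37, in a run of 9 MMP genes over 435.2 kb, all on the minus strand. MMP10 spans 102641233 to 102651359, MMP1 102660132 to 102668891, MMP3 102706532 to 102714340 and MMP13 102813724 to 102826461. The others are scattered: MMP14 on chromosome 14 (23305769 to 23318250), MMP2 on chromosome 16 (55423612 to 55540603), MMP9 on chromosome 20 (44637547 to 44645200), TIMP1 on chromosome X (47441807 to 47446188), TIMP2 on chromosome 17 (76849059 to 76921469) and TIMP3 on chromosome 22 (33197691 to 33259028). All 10 are protein-coding genes, with 5 to 13 exons in the canonical transcript. The RefSeq promoter table used here (GRCh38.p14) held 4 of the 10, MMP10, MMP14, TIMP1 and TIMP3, and the 100 bases before the transcription start of each are shown because they set the promoter of the inducible stromelysin beside those of 3 genes with a higher level per length in every library. Capitals mark a match to the core of the TATA box or, on either strand, of the GC box, both spelled out after the sequences. The windows lie at chr11:102780629-102780728 (minus strand), chr14:22836485-22836584, chrX:47582336-47582435 and chr22:32801605-32801704 (plus strand), in the order of the lines.
MMP10: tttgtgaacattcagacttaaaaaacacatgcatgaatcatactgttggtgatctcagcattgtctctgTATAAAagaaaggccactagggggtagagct
MMP14: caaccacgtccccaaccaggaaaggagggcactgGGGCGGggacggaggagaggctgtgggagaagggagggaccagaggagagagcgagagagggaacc
TIMP1: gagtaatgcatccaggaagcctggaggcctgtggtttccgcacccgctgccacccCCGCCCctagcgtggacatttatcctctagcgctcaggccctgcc
TIMP3: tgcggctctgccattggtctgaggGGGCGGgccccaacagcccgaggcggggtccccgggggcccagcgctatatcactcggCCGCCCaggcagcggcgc
In the full windows of 300 bases (250 before the start and 50 after it), the MMP10 promoter was 36.3% G and C and held a TATAAA 31 bases before the start, a run found on either strand in 11.5% of 35116 promoters. The windows of MMP14, TIMP1 and TIMP3 were 55%, 65% and 72.7% G and C, against a median of 58.7% over all promoters, and held 1, 2 and 5 matches to GGGCGG, which 45% of promoters hold at least once. The AP-1 letters TGAGTCA, found in 4.95% of all promoters, had no match in these 4 windows. The ETS letters GGAAGT, found in 22.8%, had none either. This says only that these letters are not in the windows. The promoters of MMP1, MMP2, MMP3, MMP9, MMP13 and TIMP2 were not analysed here.

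MMP14, the membrane-type enzyme that activates the MMP2 precursor at the cell surface, and TIMP1, the secreted inhibitor, dominated their groups in every library. Compared per length of transcript (CPM per kb), MMP14 made up 81.1% to 95.3% of the summed level of the 7 MMPs and TIMP1 87.3% to 98.2% of that of the 3 TIMPs. The MMP sum was 41.2 and 75.8 CPM per kb in M1, 52.7 and 51.3 for M2, 48.6 and 54.2 for M3 and 37.1 and 32.2 for M4 (replicates 1 and 2). The TIMP sum was 331 and 350 for M1, 899 and 875 for M2, 309 and 364 for M3, and 221 and 285 for M4. The ratio of TIMP to MMP transcripts was 17 and 17.1 in the M2 libraries and between 4.61 and 8.82 in the other 6, with M1 spanning 4.61 to 8.04. It is mostly a ratio of TIMP1 to MMP14, and how far TIMP1 blocks MMP14 in these cells was not tested. All of these values are levels of RNA and say nothing of how much protein was active. In bulk samples fewer cells expressing a gene and less RNA per cell cannot be told apart.

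**Figure D1:**
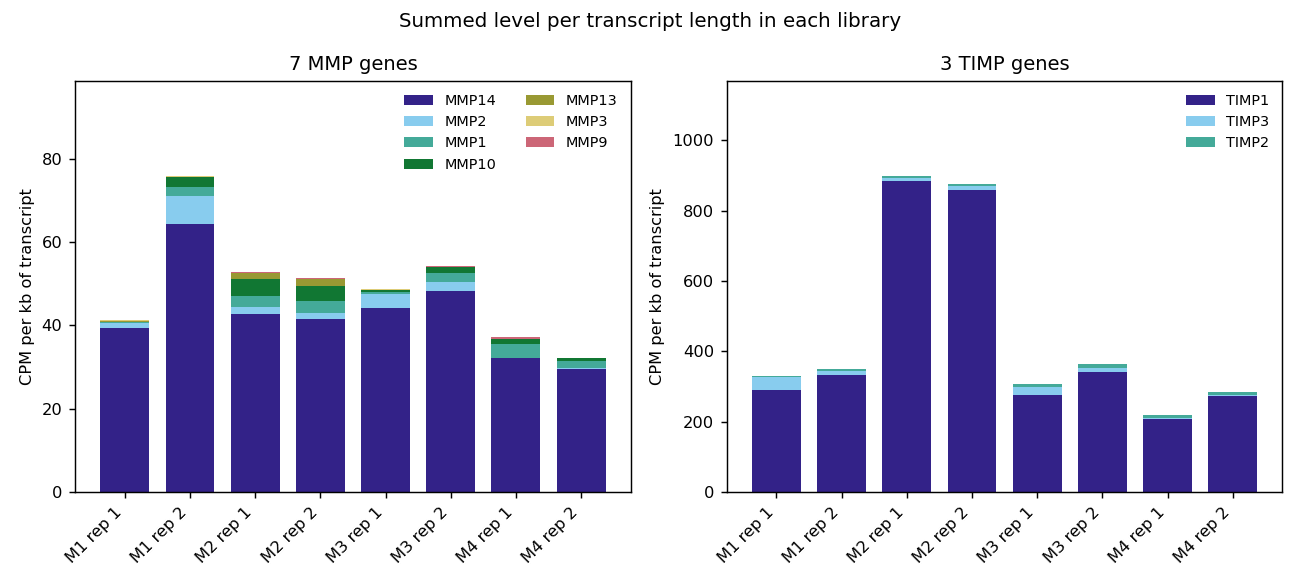
Stacked bars give the summed level per transcript length (CPM per kb, linear axes from 0) of the 7 MMP genes (left) and the 3 TIMP genes (right) in each of the 8 libraries. MMP14 fills at least 81.1% of every MMP bar, and the 2 M2 libraries have the tallest TIMP bars, 899 and 875.

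Between lines, 17 of 60 tests (10 genes in 6 comparisons) were called, at an adjusted p under 0.05 by edgeR's quasi-likelihood test (Benjamini-Hochberg over all genes tested) and more than 2-fold. In this fit all 4 lines share 1 estimate of the spread of a gene. Each SE and p-value therefore also draws on lines outside its comparison, the close M2 pair among them. The calls fell on MMP2, MMP9, MMP13, TIMP1, TIMP2 and TIMP3. In M2 against M1, 1 of the 10 was called, TIMP1, which was higher, where 3.37% of all genes tested were called (2.26% higher and 1.11% lower). In M4 against M3, 2 were called, MMP2 and TIMP3, both lower, where 10.3% of all genes were called (3.99% higher and 6.3% lower). In M3 against M1, TIMP2 was higher and MMP13 lower, against 13.5% of all genes (8.02% higher and 5.51% lower). In M4 against M1, 2 were higher and 3 lower, against 20.7% of all genes (9.48% higher and 11.2% lower). In M3 against M2, 1 was higher and 2 lower, against 4.15% (2.95% higher and 1.2% lower), and in M4 against M2 all 4 calls were lower, against 13.9% (6.98% higher and 6.94% lower). With 2 libraries a line, the ranges of both lines did not overlap in 59% to 73% of all genes tested, depending on the comparison. The median log2 fold change of the 10 genes was 0.82 for M2 against M1, -0.17 for M3 against M1, -0.56 for M4 against M1, 0.02 for M3 against M2, -1.40 for M4 against M2 and -0.28 for M4 against M3, while the median over all genes stayed between -0.035 and -0.004. The comparisons share lines, so their calls are not separate evidence. MMP1, MMP3, MMP10 and MMP14 were called in 0 comparisons by edgeR and by DESeq2 alike, with 0, 1, 0 and 2 of their 6 unadjusted p-values under 0.05.

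**Figure D2:**
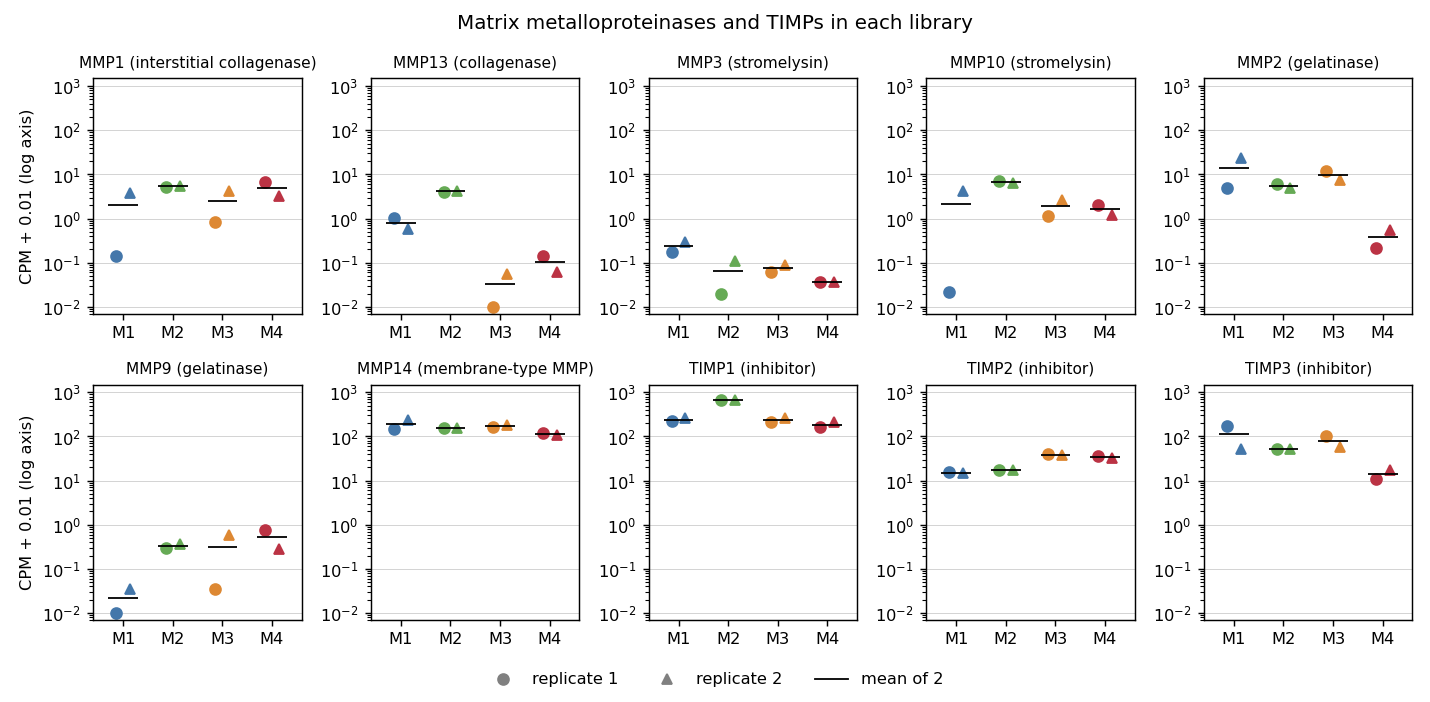
Each panel plots the level of 1 gene as CPM + 0.01 on a log axis against the line, with circles for replicate 1, triangles for replicate 2 and a bar at their mean. MMP2 and TIMP3 are lowest in both M4 libraries (0.203 and 0.551 CPM, and 11 and 17.4 CPM), TIMP1 is highest in both M2 libraries, and MMP1 and MMP10 are far apart in M1.

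The collagenases were expressed at a low level. MMP1, the interstitial collagenase that opens fibrillar collagens, was at 0.133 and 3.84 CPM for M1 (11 and 315 counts), 5.24 and 5.57 for M2, 0.846 and 4.12 for M3, and 6.72 and 3.29 for M4. The M1 replicates differed 28.9-fold and the M3 replicates 4.87-fold, so the ranges of M1, M3 and M4 overlapped and that of M2 lay within that of M4. The order of the line means was M2, M4, M3, M1, and no line differed from the next beyond the spread of its replicates. The log2 fold change was 1.44 ± 1.25 (SE) for M2 against M1 (adjusted p = 0.532) and 1.33 ± 1.24 for M4 against M1 (adjusted p = 0.453). Without M1 replicate 2 the latter was 5.22 (adjusted p = 0.0226), so that library decides the call.

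MMP13, a collagenase with a preference for type II collagen, had its highest values in M2 and was almost absent from the lines grown without EGF. It was at 1.02 and 0.586 CPM for M1 (84 and 48 counts), 4.02 and 4.29 for M2 (409 and 302 counts), 0 and 0.0459 for M3 (0 and 4 counts) and 0.132 and 0.0513 for M4 (15 and 4 counts). Both M3 and both M4 libraries were below every M1 and M2 library. MMP13 was called lower in M3 than in M2 (log2 fold change -7.37, adjusted p = 0.00633) and than in M1 (-4.99 ± 0.89, adjusted p = 0.00828). In M4 it fell by 5.43 on the log2 scale against M2 (adjusted p = 0.00387) and by 3.06 against M1 (adjusted p = 0.018). These 4 comparisons also set medium without EGF against medium with it, and line and medium cannot be told apart. The size of the M3 values rests on few counts: without M3 replicate 2 they were -11.50 against M2 and -9.12 against M1, and without M3 replicate 1 -6.45 and -4.07, all still called. The call against M2 was lost without M2 replicate 2 (-7.32, adjusted p = 0.0501). The M4 to M1 call was lost without M1 replicate 1 (-2.59, adjusted p = 0.0553) or M4 replicate 2 (-2.57, adjusted p = 0.108), while without M4 replicate 1 it was -3.92 (adjusted p = 0.0478). With the 2 libraries exchanged all 4 kept their direction and lay between -6.65 and -4.67, and none passed (adjusted p = 0.0901 for M3 and 0.0644 for M4 against M1, 0.0987 for M3 and 0.059 for M4 against M2), while with both left out all 4 passed. M2 against M1 gave 2.37 ± 0.67 (adjusted p = 0.0874), which DESeq2 called (adjusted p = 0.00085) and which turned to -0.05 with the exchange. The M4 to M3 difference was 1.93 ± 0.96 (adjusted p = 0.202).

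The stromelysins were also low, at 7.01 CPM or less. MMP3, which degrades many matrix proteins and can activate other MMP precursors, had 1 to 23 counts in every library. Its levels were 0.169 and 0.281 CPM for M1, 0.00982 and 0.0995 for M2, 0.0505 and 0.0804 for M3, and 0.0264 and 0.0256 for M4, the M1 libraries being highest. The log2 fold change of M4 against M1 was -3.04 ± 1.07 and did not pass (adjusted p = 0.0646). MMP10, the second stromelysin, was at 0.0121 and 4.22 CPM for M1 (1 and 346 counts), 7.01 and 6.40 for M2, 1.11 and 2.64 for M3, and 2.05 and 1.19 for M4. Both M2 libraries were above the other 6, and the M1 replicates, which differed 349-fold, lay on either side of all M3 and M4 libraries. M2 against M1 gave 1.66 ± 1.45 (adjusted p = 0.537), or 8.96 without M1 replicate 2 (adjusted p = 0.0129). In M4 against M1 the value was -0.38 ± 1.43 (adjusted p = 0.865) and turned to 6.91 without M1 replicate 2 (adjusted p = 0.00568), so the direction turned with that library. MMP3 and MMP10 are close relatives, and reads that match both are divided by estimate, which leaves the few MMP3 counts uncertain.

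Of the gelatinases, MMP2 was close to absent from M4. This enzyme, which cleaves the type IV collagen of basement membranes, was at 4.83 and 23.6 CPM for M1 (400 and 1931 counts), 6.01 and 5.0 for M2 (612 and 352 counts), 11.7 and 7.47 for M3 (929 and 651 counts), and 0.203 and 0.551 for M4 (23 and 43 counts). All other libraries were at least 4.83 CPM, so the M4 range overlaps with none. Within one medium, M4 was lower than M3 by a log2 fold change of -4.70 ± 0.84 (adjusted p = 0.0122), and the call also held with the 2 libraries exchanged (-4.69, adjusted p = 0.0288) or left out (-4.70, adjusted p = 0.00502). It was lost without M4 replicate 1 (-4.12, adjusted p = 0.0848), and was -5.54 without M4 replicate 2 (adjusted p = 0.0461). Against M1 the value was -5.26 ± 0.86 (adjusted p = 0.00407), a call kept in all 18 other fits, with -3.71 without M1 replicate 2, -5.99 without M1 replicate 1, -4.68 without M4 replicate 1 and -6.10 without M4 replicate 2. Against M2 it was -3.90 ± 0.81 (adjusted p = 0.0149), and the call was lost without M2 replicate 1 (adjusted p = 0.0859), M2 replicate 2 (0.0729) or M4 replicate 1 (-3.32, 0.0946) and kept without M4 replicate 2 (-4.73, 0.0469). The order of the means was M1, M3, M2, M4, in which M1 overlapped with M3 and M2, and both M3 libraries were above both M2 libraries (M3 against M2, 0.80 ± 0.70, adjusted p = 0.558). M2 against M1 gave -1.37 ± 0.71 (adjusted p = 0.293) and turned to 1.40 with the 2 libraries exchanged and to 0.19 without M1 replicate 2. MMP2 is also a product of fibroblasts, whose markers summed to 37.7 and 18.6 CPM in the M4 libraries and 51.9 and 25.1 in those of M3, with COL1A2 at 0, LUM at 3 counts or fewer and COL3A1 at 8 or fewer in every library. Other markers of the list were expressed: COL1A1 was at 6.07 to 25.5 CPM over the 8 libraries, and FAP was at 41.7 and 9.06 CPM for M3 and 30.1 and 12.1 for M4. DCN, which encodes the proteoglycan decorin, was, like MMP2, lowest in M4, at 34.1 and 1.62 CPM for M1, 60.2 and 58.6 for M2, 1.01 and 2.11 for M3, and 0.167 and 0.0128 for M4. It was called lower in M4 than in M1 (-7.45, adjusted p = 0.0125) and M2 (-9.19, adjusted p = 0.0097), and its difference from M3 did not pass (-3.94, adjusted p = 0.12). The part of these markers in the result was not tested.

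MMP9, the second gelatinase and a product known from neutrophils and macrophages as well as tumour cells, was rare in all lines. It had 0 and 2 counts for M1, 29 and 25 for M2 (0.285 and 0.355 CPM), 2 and 50 for M3 (0.0253 and 0.574 CPM), and 85 and 21 for M4 (0.749 and 0.269 CPM). M1 was lowest, and M2, M3 and M4 overlapped. Against the 2 counts of M1 the ratio was 45.6 for M4 (exact 95% interval 12.3 to 381, counting error only), 25.8 for M2 (6.81 to 219) and 25.8 for M3 (6.78 to 218). M4 against M1 was called (log2 fold change 5.24 ± 1.60, adjusted p = 0.0401), but the call was lost in 8 of 18 other fits, among them the exchange (1.81, adjusted p = 0.565), the fit with both libraries left out (8.45, 0.113) and the fits without M1 replicate 1 (4.33, 0.147), M1 replicate 2 (8.49, 0.0851), M4 replicate 1 (4.32, 0.148) or M4 replicate 2 (5.81, 0.0717), or without M2 replicate 1 or 2 (5.23 and 5.24, adjusted p = 0.0691 and 0.0694). The differences of M2 (4.56 ± 1.61, adjusted p = 0.145) and M3 (4.48 ± 1.61, adjusted p = 0.0842) from M1 did not pass, while DESeq2 called both (4.71 and 4.62, adjusted p = 0.0413 and 0.027). The M3 value was 0.98 without M3 replicate 2 (adjusted p = 0.721) and was called without M3 replicate 1 (5.41, adjusted p = 0.0287). Of 3 neutrophil markers, MPO was higher in M4 (1.04 and 1.32 CPM, against 0 to 0.213 in the other libraries), and ELANE and CSF3R were at 0 in M4. Their sum was 1.04 and 1.32 CPM for M4 and 0.0244 to 0.29 in the other libraries. The summed level of 6 macrophage markers was 74.3 and 66 CPM for M4 and 13.4 to 50 CPM in the others. CD68 (51.4 and 39 CPM for M4) and CSF1R (20 and 24.6 CPM) made up most of it, while CD14 was lower in M4 than in M1 (-3.65, adjusted p = 0.00228), ITGAM gave -1.98 (adjusted p = 0.105) and AIF1 was at 0. Their part in the MMP9 result was not tested.

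MMP14 varied least between lines among the proteases. It was at 145 and 238 CPM for M1, 158 and 154 for M2, 164 and 178 for M3, and 119 and 110 for M4 (8547 to 19541 counts a library), and both M4 libraries were the lowest. The line means differed by at most 1.68-fold. M4 against M1 was -0.75 ± 0.22, below 2-fold (adjusted p = 0.0348), and -0.41 with the 2 libraries exchanged (adjusted p = 0.294). Without M1 replicate 1 it was -1.05 (adjusted p = 0.00399). M4 against M3 was -0.58 ± 0.22 (adjusted p = 0.107).

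The 3 inhibitors ordered the lines in 3 different ways. TIMP1 was at 222 and 257 CPM for M1, 679 and 660 for M2, 212 and 262 for M3, and 160 and 209 for M4, with 16322 to 69166 counts a library. Both M2 libraries were above the other 6, M1 and M3 overlapped, and M4 lay just under them. TIMP1 was called higher in M2 than in M1 (log2 fold change 1.48 ± 0.19, adjusted p = 0.00842) and lower in M3 (-1.50 ± 0.19, adjusted p = 0.00633) and M4 (-1.86 ± 0.19, adjusted p = 0.00112) than in M2, and M4 gave -0.38 ± 0.18 against M1 (adjusted p = 0.159) and -0.36 ± 0.18 against M3 (adjusted p = 0.212), which did not pass. All 3 calls rest on which libraries are M2. With the 2 libraries exchanged, the values were 0.02 (adjusted p = 1) for M2 against M1, -0.95 (adjusted p = 0.437) for M3 and -1.31 (adjusted p = 0.176) for M4 against M2. With both left out they were 1.57 (adjusted p = 0.123), -1.48 (adjusted p = 0.0521) and -1.84 (adjusted p = 0.0105). Without M2 replicate 1 or 2, M2 against M1 was 1.47 and 1.51 (adjusted p = 0.0942 and 0.0873), and M3 against M2 -1.48 and -1.52 (0.071 and 0.0666). The library labelled M1 replicate 2, at 257 CPM, was near M1 replicate 1 and not near M2 in this gene, and the library labelled M2 replicate 1 was near M2 replicate 2. The other genes went both ways. In TIMP3 the library labelled M1 replicate 2, at 53.0 CPM, was near M2 (51.1 and 52.7) and far from M1 replicate 1 (174). In MMP1 and MMP10 it was also nearer M2, and in TIMP2, MMP3, MMP9 and MMP13 nearer M1 replicate 1. In MMP2 and MMP14 it was above all of these. Such levels do not settle the assignment.

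TIMP2, the inhibitor that also helps MMP14 to activate MMP2, had the smallest error of all 10 genes. Its levels were 15.3 and 14.8 CPM for M1, 17.1 and 17.5 for M2, 39.8 and 37.4 for M3, and 36.3 and 32.1 for M4, and replicates differed by at most 1.13-fold. The 4 libraries without EGF were all above the 4 with it. TIMP2 was called higher in M3 than in M1 (1.36 ± 0.14, adjusted p = 0.00118) and than in M2 (1.16 ± 0.14, adjusted p = 0.00543), and in M4 than in M1 (1.19 ± 0.14, adjusted p = 0.00105). M4 against M2 was just short of 2-fold (0.98 ± 0.14, adjusted p = 0.00338) and was called in 8 of 18 other fits, among them the exchange (1.08, adjusted p = 0.0156) and DESeq2 (1.01, adjusted p = 2.55e-09). Within one medium the differences were 0.20 ± 0.14 for M2 against M1 (adjusted p = 0.424) and -0.18 ± 0.14 for M4 against M3 (adjusted p = 0.408). The calls against M1 held in all 18 other fits, the exchange included (1.25, adjusted p = 0.0317 for M3, and 1.08, adjusted p = 0.0177 in M4). The call of M3 against M2 was kept with the exchange (1.26, adjusted p = 0.0342) and lost without M2 replicate 1 or 2 (adjusted p = 0.0996 and 0.0939) or with M1 replicate 2 and M2 replicate 1 left out (1.14, adjusted p = 0.0874). As all 3 set lines without EGF against lines with it, line and medium cannot be told apart. Compared per length, TIMP2 stood at 0.603 to 4.81 times MMP2 in the M1, M2 and M3 libraries and at 172 and 56.1 times MMP2 in M4. An unnamed lncRNA on the other strand (ENSG00000267601) shares 367 exon bases with TIMP2 and had 12 to 205 counts a library. Whether the counting used strand is not given in the sources used here, and without strand reads from these bases cannot be told apart. The genes that overlap MMP1 (WTAPP1), MMP9 (SLC12A5-AS1) and TIMP1 (SYN1) on the other strand had at most 10, 2 and 8 counts.

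TIMP3, the inhibitor that binds to the matrix and also blocks several ADAM sheddases, was lowest in M4. It was at 174 and 53.0 CPM for M1, 51.1 and 52.7 for M2, 101 and 59.2 for M3, and 11 and 17.4 for M4 (1248 and 1358 counts). The 2 M4 libraries were below all others, M1 and M3 overlapped, and M2 lay below both. M2 against M1 gave -1.13 ± 0.53 (adjusted p = 0.255), or -1.74 without M1 replicate 2 (adjusted p = 0.0397) and -0.03 without M1 replicate 1 (adjusted p = 0.985), and M3 against M2 gave 0.63 ± 0.53 (adjusted p = 0.54). Within one medium, M4 was lower than M3 by -2.50 ± 0.55 (adjusted p = 0.0253), with an SE that also draws on the spread of M1 and M2. The difference was -3.00 ± 0.57 against M1 (adjusted p = 0.00778) and -1.87 ± 0.54 against M2 (adjusted p = 0.047). With the exchange, the calls against M3 (-2.50, adjusted p = 0.0491) and M1 (-2.99, adjusted p = 0.0224) were kept and that against M2 was lost (-1.90, adjusted p = 0.0634). The call against M3 was lost without M2 replicate 1 or 2 (adjusted p = 0.0704 and 0.0714), M3 replicate 1 (-2.07, 0.102), M4 replicate 1 (-2.20, 0.145) or M4 replicate 2 (-2.85, 0.0833). The call against M1 was lost without M4 replicate 1 (-2.70, 0.0566) and kept at -1.89 without M1 replicate 1 and -3.61 without M1 replicate 2. The call against M2 was lost on leaving out any 1 library of M2, M3 or M4, with adjusted p from 0.0598 to 0.214. TIMP3 lies within SYN3, a gene on the other strand with which it shares no exon bases. SYN3 had 344 and 128 counts for M1, 505 and 360 for M2, 569 and 775 for M3, and 41 and 109 for M4, also fewest in M4.

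**Figure D3:**
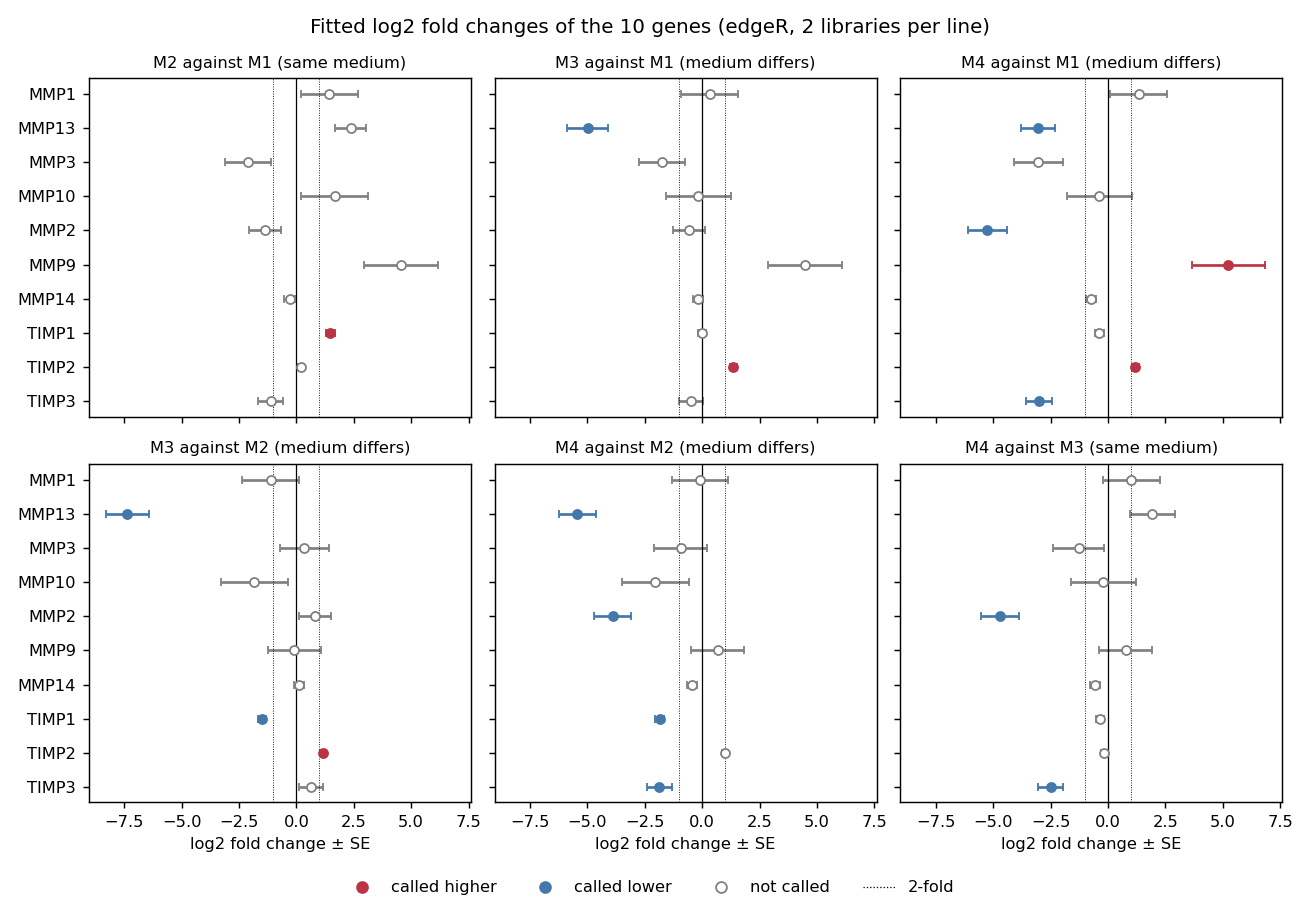
Points give the fitted log2 fold change of each gene in each of the 6 comparisons, with bars of 1 SE and dotted lines at 2-fold (filled red, called higher, filled blue, called lower, open, not called). TIMP1 stands out in M2 against M1 and MMP2 and TIMP3 for M4 against M3, the comparisons within one medium, and the widest bars belong to MMP9, MMP10 and MMP1.

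Of the 17 calls, 8 were kept with the 2 libraries exchanged and 13 with both left out, and 3 (TIMP2 for M3 and in M4 against M1, and MMP2 for M4 against M1) were kept in all 18 other fits. The direction of none of the 17 turned in any of these fits. Those lost with the exchange were the 3 of TIMP1, the 4 of MMP13, that of MMP9 and that of TIMP3 for M4 against M2.

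**Figure D4:**
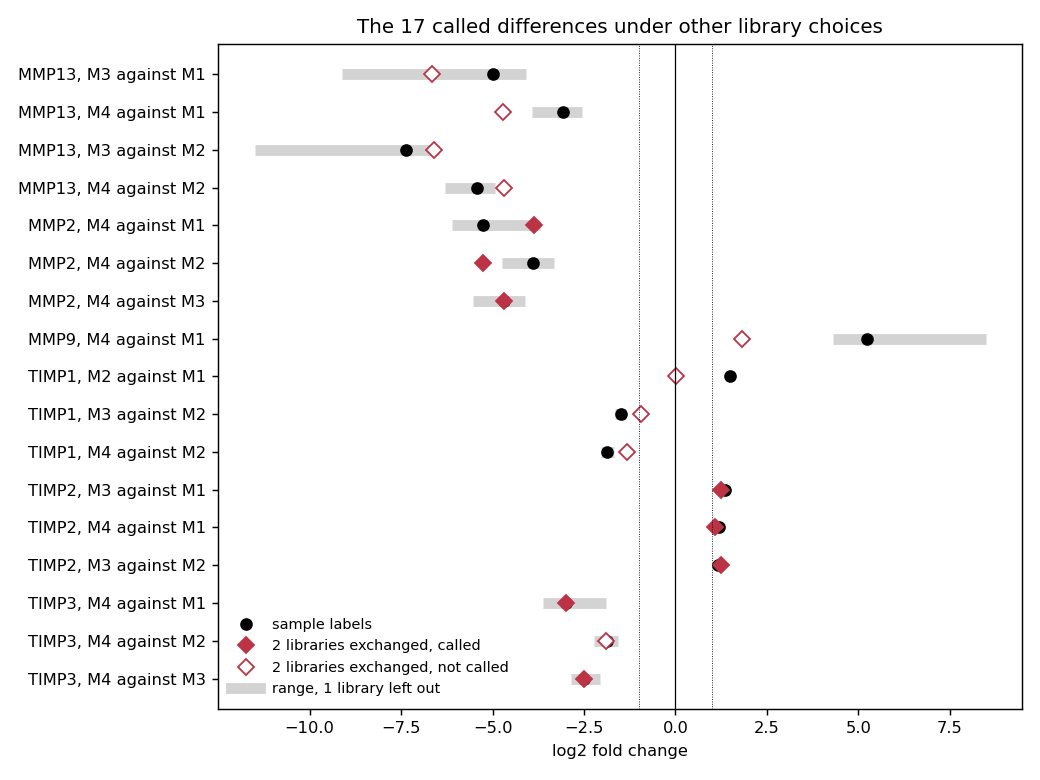
Each row is 1 of the 17 called differences, with the log2 fold change under the sample labels (black), with M1 replicate 2 and M2 replicate 1 exchanged (red diamond, filled where still called) and the range over fits that leave out 1 library (grey). The 3 MMP2 rows keep a filled diamond, and TIMP1 for M2 against M1 moves from 1.48 to 0.02.

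The other parts of the pericellular protease system were read from the same fit. Within the medium without EGF, 4 of 9 further MMPs tested were called between M4 and M3, 3 of them lower in M4, where 10.3% of all genes were called (3.99% higher and 6.3% lower). MMP7 (matrilysin) was at 7.25 and 1.76 CPM for M3 and 0.185 and 0 for M4 (log2 fold change -5.47 ± 1.23, adjusted p = 0.0252). MMP11 (stromelysin-3) had 222 counts over the M3 libraries and 0 in both M4 libraries, which makes it at least 85.2-fold lower (against a floor of 3 counts over the line). MMP16, a membrane-type enzyme, was also lower (-3.01 ± 0.58, adjusted p = 0.0145). It was at 2.75 and 5.06 CPM for M3, 0.652 and 0.308 for M4, and 0.142 to 0.488 for M1 and M2. MMP25, another membrane-type enzyme, was higher (2.50 ± 0.59, adjusted p = 0.0277), with 10 and 16 counts for M3 and 102 and 68 for M4. Its levels were 0.899 and 0.871 CPM for M4 and 0.58 and 0.537 for M1. Neither MMP16 nor MMP25 was called between M4 and M1 or M2. The median of the 9 was 0.26, against -0.02 over all genes, and in M2 against M1 edgeR and DESeq2 called 0 of the 9, with 1 unadjusted p under 0.05 (median -0.72). Of 4 further inhibitors tested, RECK, a membrane-anchored inhibitor of MMPs, fell in M4 against M3 (-1.54 ± 0.33, adjusted p = 0.0217), and in M2 against M1 both tools called 0, with 1 unadjusted p under 0.05.

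Among 19 activators and partners tested, 2 were higher and 2 lower in M4 against M3 (10.3% of all genes called, median 0.15). PLAU (urokinase, which makes plasmin, an activator of several MMP precursors) was at 32.2 and 30.3 CPM for M3 and 217 and 190 for M4 (2.70 ± 0.42, adjusted p = 0.00804). The protease KLK7 was higher (4.42 ± 0.69, adjusted p = 0.00781), against 8 and 2 counts in M3. In M4 it was at 1.67 and 0.987 CPM, below M1 (21.4 and 9.01) and M2 (5.71 and 5.39). KLK7 was called lower in M4 than in M1 (-3.51, adjusted p = 0.00354) and M2 (-2.06, adjusted p = 0.0301). The proprotein convertase PCSK6 was lower in M4 than in M3 (-2.43 ± 0.27, adjusted p = 0.00272). In M2 against M1, 2 were higher and 1 lower (3.37% of all genes called, median 0.16). The urokinase receptor PLAUR was at 8.78 and 10.9 CPM for M1 and 23.6 and 24.2 for M2 (1.28 ± 0.17, adjusted p = 0.00994), the protease inhibitor SERPINE2 was higher as well (4.4 ± 0.69, adjusted p = 0.0181), and the convertase PCSK5 was lower (-2.56 ± 0.41, adjusted p = 0.0158). LCN2, which binds MMP9, was higher in M4 than in M1 (6.69 ± 1.22, adjusted p = 0.00701) and M2 (6.50 ± 1.21, adjusted p = 0.0105), with 107 and 10.8 CPM for M4 and under 1 CPM for M1 and M2. Both calls were kept with the 2 libraries exchanged and lost with both left out (adjusted p = 0.0824 and 0.0983). Every call in M2 against M1 named here and in the following 2 paragraphs was lost with the libraries exchanged or left out. Of the 22 calls of these lists in M4 against M3, 11 were kept with the exchange and 19 with both left out. Among those lost with the exchange were MMP7, MMP16, MMP25, RECK, ADAM28, ADAMTS6, ADAMTS12, LAMB3, FOS and JUND, and those lost with both left out were MMP7, RECK and LAMB3.

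The ADAM and ADAMTS proteases, many of which TIMP3 inhibits, had 1 higher and 3 lower of 17 tested in M4 against M3 (10.3% of all genes called, median -0.58). ADAMTS6 was higher (2.79 ± 0.62, adjusted p = 0.0227), and ADAMTS12 (-5.02 ± 0.93, adjusted p = 0.0131), ADAM28 (-3.86 ± 0.93, adjusted p = 0.0296) and ADAM8 (-3.57 ± 0.42, adjusted p = 0.00334) were lower. The first 2 of these lower genes rest on few counts. ADAMTS12 had 18 and 17 for M3 and 1 and 0 for M4, and ADAM28 had 20 and 33 for M3 and 3 and 1 for M4. ADAM8 was highest in M3, at 17.6 and 35.3 CPM, against 2.02 and 2.43 for M4, 1.54 and 2.73 for M1 and 4.59 and 4.68 for M2. In M2 against M1 only ADAMTS12 was called of the 17 (3.19 ± 0.69, adjusted p = 0.0437, median of the list -0.16). Of 26 matrix proteins tested, 1 was higher and 3 lower in M4 against M3 (10.3% of all genes called, median -0.48): the laminin chain LAMB3 was higher (1.00 ± 0.25, adjusted p = 0.0318), and SPARC, a collagen-binding matricellular protein (-4.15 ± 0.67, adjusted p = 0.00977), the laminin chain LAMB1 (-1.18 ± 0.15, adjusted p = 0.00442) and the proteoglycan SDC1 (-1.13 ± 0.18, adjusted p = 0.00878) were lower. SPARC was far lower in M4 (19.9 and 14.4 CPM) than in M3 (253 and 359 CPM), and stood at 39.4 and 181 CPM for M1 and 31.0 and 29.6 for M2. It was called lower in M4 than in M1 (-2.68, adjusted p = 0.0177). Unlike MMP2, it was not called between M4 and M2 (-0.82, adjusted p = 0.361), and it was called higher in M3 than in M2 (3.34, adjusted p = 0.0322). In M2 against M1, 3 of the 26 were called, all higher (median -0.12), among them the laminin chain LAMA3 (1.34 ± 0.22, adjusted p = 0.0185) and the basement membrane collagen COL4A2 (1.54 ± 0.35, adjusted p = 0.0487).

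AP-1 and ETS factors are known to bind the promoters of several inducible MMP genes. Of 20 tested, 4 were higher and 1 lower in M4 against M3 (10.3% of all genes called, median 0.55): ATF3 (4.11 ± 0.41, adjusted p = 0.00206), ETS1 (1.40 ± 0.26, adjusted p = 0.0126), JUN (1.39 ± 0.21, adjusted p = 0.00729) and JUND (1.05 ± 0.22, adjusted p = 0.0207) were higher and FOS was lower (-1.89 ± 0.47, adjusted p = 0.0355). In M2 against M1, FOSL1 (1.27 ± 0.19, adjusted p = 0.013) and ELK3 (1.07 ± 0.14, adjusted p = 0.00842) were higher (median of the list 0.26). FOSL1 was at 10.6 and 15.4 CPM for M1, 31.0 and 31.3 for M2, 76.2 and 86.6 for M3, and 167 and 158 for M4. The list had 8 higher and 1 lower in M3 against M1 (8.02% and 5.51% of all genes). It had 10 higher and 2 lower in M4 against M1 (9.48% and 11.2% of all genes), and both comparisons also differ in EGF. Most calls of this list in M3 against M1 were lost with the exchange, that of FOSL1 among them (1.97, adjusted p = 0.119). Over all lists of the protease system, this one included, 7 of 26 calls in M3 against M1 were kept with the exchange and 22 with both left out. In M4 against M1, 21 of 40 were kept with the exchange and 27 with both left out.

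By Pearson's correlation of log2(CPM + 1) over the 8 libraries, among 13288 or 13289 genes with a mean of at least 1 CPM, the gene most like each followed gene was GBP1 for MMP1 (0.949), UBA1 for MMP13 (0.986), PRRT3 for MMP3 (0.968), C9orf78 for MMP10 (0.983), CTNNBIP1 for MMP2 (0.993), SLC38A10 for MMP9 (0.935), SOSTDC1 for MMP14 (0.991), TRA2A for TIMP1 (0.984), EHD4 for TIMP2 (0.994) and MTSS1 for TIMP3 (0.983). With only 4 lines behind 8 libraries such values are common: 393 genes exceeded 0.9 with TIMP2 and 216 with MMP2, but 4 with MMP9 and 13 with MMP10. These are descriptions over libraries that share line and medium. Among the followed genes themselves, the highest values were 0.943 between MMP2 and MMP14 and 0.923 between MMP13 and TIMP1. The 4 neighbours on chromosome 11 did not move as one, with 0.808 between MMP1 and MMP10, 0.603 between MMP10 and MMP13 and 0.245 between MMP1 and MMP13. MMP1 and MMP3 gave -0.276, but MMP3 had only 1 to 23 counts a library, so its values rest on few counts.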

How the data were processed

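Poly A+ RNA from 3D cultures of the 4 lines, with 2 biological replicates of each, was sequenced as paired-end reads. The authors trimmed reads with Trimmomatic, aligned them with STAR to hg19 and deposited 1 table of expected counts per gene from RSEM, not normalized; tool versions and the use of strand are not given in the sources used here. Of the values, 12.8% were not whole and all were rounded. Gene names and positions came from GENCODE release 44 on GRCh37, which named 94.4% of the table. Per-gene lists held 152 genes, 149 of them matched (MMP12, MMP28 and PECAM1 were not analysed here).

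Groups came from the sample labels. The study's supplementary expression table, held here only in part, served only to check which library each of its columns matched. edgeR 4.0.16 in R 4.3.3 (TMM, filterByExpr, robust quasi-likelihood F test, 1 coefficient per line over 8 libraries) gave each p, adjusted by Benjamini-Hochberg over 18431 genes, with a call at an adjusted p under 0.05 and over 2-fold. SEs were derived from the F statistics and rest on a spread shared by all 4 lines. CPM used TMM library sizes, and CPM per kb the canonical transcript length. DESeq2 1.42.0 was an alternative, beside other scalings, filters, thresholds, a replicate block, exchanged libraries and leaving out each library. On simulated counts for M4 against M1 (17856 genes), 14, 42, 47 and 48 of 50 genes changed 2-, 4-, 8- and 16-fold were called, and 11 of 17656 unchanged ones. The genes changed 2-fold sit at the threshold of a call. The simulation gave every line the same spread, unlike the real replicate pairs, so it does not give the error rates of these data. Library totals had a median of 84947231, and intervals cover counting error only.

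Named were the 10 genes, genes overlapping them, the genes most like each, and, from the lists, every call in M2 against M1 or M4 against M3 and the 3 largest calls with at least 100 counts in both libraries of the higher line elsewhere. Some called genes of these lists are counted but not reported here by name. The genes, lists and tests were chosen with earlier results of these data known. The chosen fit did not pair libraries by replicate number.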

Additional observations from a re-analysis of the deposited data

How the results depend on the processing

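The count of the 10 genes called moved with these choices. In M2 against M1 it was 1 under the chosen fit, 7 with no filter on low counts, 3 with DESeq2, 2 in a fit of only these lines, 0 with M1 replicate 2 and M2 replicate 1 exchanged (0 unadjusted p under 0.05) and 0 with both left out (5 unadjusted), and 0 to 3 on leaving out single libraries (0 without M2 replicate 1 or 2, with 3 and 4 unadjusted p under 0.05 by edgeR). In M3 against M1 it was 2, 1 with the exchange and 2 to 4 over the leave-outs. In M4 against M1 it was 5, 3 with the exchange, 3 at an adjusted p under 0.01 and 3 to 6 over the leave-outs. In M3 against M2 it was 3, 5 with no filter, 1 with the exchange, 1 with both left out and 0 to 3 over the leave-outs (0 without M2 replicate 2, 3 unadjusted). In M4 against M2 it was 4, 2 with the exchange, 2 at an adjusted p under 0.01 and 2 to 6 over the leave-outs. In M4 against M3 it was 2, 0 at an adjusted p under 0.01 (3 unadjusted) and 0 to 2 over the leave-outs (0 without M4 replicate 1, 2 unadjusted).

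Some uncalled differences turned. MMP2 in M2 against M1 was 1.40 (log2) with the exchange, 0.053 with both libraries left out and -2.10 to 0.19 over the leave-outs. MMP13 in M2 against M1 was -0.048 with the exchange. MMP10 in M4 against M1 was 6.91 with both left out, -1.36 to 6.91 over the leave-outs and 0.355 with the replicate block. The block kept 16 of the 17 calls and lost that of TIMP3 in M4 against M2 (-1.83, adjusted p = 0.0633). Deviations of same-numbered libraries correlated at 0.262 between M3 and M4 and at -0.0879 to 0.00883 in the other pairs of lines. Those other pairs all hold a library whose line is in question, so they cannot decide whether replicate numbers pair libraries. A pairing of M3 and M4 libraries was not tested. The cause of these shifts was not tested. With fewer than 25 counts a library, MMP3, and MMP9 and MMP13 in some libraries, carry large counting errors at this depth. Also below 25 counts were MMP1 and MMP10 in M1 replicate 1 (11 and 1 counts) and MMP2 in M4 replicate 1 (23 counts).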
